A study of Mus musculus with 12 samples.

Results

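T cells need a costimulatory signal beside that of the antigen receptor, and 9 receptor genes that give or shape this signal were described here, out of 18992 gene identifiers in the tables. The genes were chosen by name, with earlier results of these data known. *Tnfrsf9* (CD137), *Tnfrsf4* (OX40), *Tnfrsf18* (GITR), *Tnfrsf25* (DR3), *Tnfrsf1b* (TNFR2), *Cd27* and *Fas* encode receptors of the TNF receptor family, and *Cd28* and *Icos* encode receptors of the CD28 family. All 9 were found, and each passed the minimum of 20 UMIs over the libraries compared.

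The cells were PD-1+CD44+CD8+ T cells sorted from NZB/W F1 mice, a cross that develops lupus nephritis with age, at 12 weeks of age from spleen (12W spleen) and at 28 weeks from spleen (28W spleen) and kidney (28W kidney). The study describes its mice of this strain as female. Per the labels 4 samples make up each of the 3 groups, but the deposited tables pool them with no map from cells to samples, so each group was 1 library and no difference below was tested. The number of mice is not stated, and the titles were used for the 28W spleen samples, whose age entry gives 12 weeks instead. Kidney cells were released with collagenase and a Percoll gradient, a step not described for spleen.

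There were 6894, 6481 and 7135 cells for 12W spleen, 28W spleen and 28W kidney, split by the authors into 10, 11 and 12 clusters, with 34742303, 32023473 and 29937384 unique molecular identifiers (UMIs) in that order. Cell barcodes shared by a pair of libraries numbered 52 to 66. The 5 CD8 T cell markers (*Cd8a*, *Cd8b1*, *Cd3e*, *Cd3d* and *Cd3g*) were detected in every library, with a summed level of 4668, 4433 and 5715 UMIs per 1000000 (CPM). *Cd4* was at 0.345, 0.593 and 3.94 CPM. B cell, myeloid, neutrophil and kidney tubule markers were highest in kidney, where 5 B cell markers summed to 196 CPM against 60.4 and 95.7 in 12W and 28W spleen, 5 myeloid markers to 314 against 30.1 and 50.1, and 6 kidney tubule markers to 709 against 0.374 and 0.687, with 4 of the 6 at 0 in both spleen libraries, and 4 neutrophil markers to 622 against 72.4 and 272. Markers of red cells (5 genes) and endothelium (3 genes) had the other order, with 2421, 504 and 323 CPM and 48.9, 42.7 and 27.0 CPM for 12W spleen, 28W spleen and 28W kidney. B cell, myeloid or tubule markers were raised in 1, 2 and 4 clusters of the 3 libraries, holding 15.4%, 9.61% and 29.6% of cells. Some of the differences below are also given without those clusters.

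Receptors of the TNF receptor family are trimers that gather TRAF adaptors or, for those with a death domain such as Fas and DR3, death domain adaptors. OX40, CD137, GITR, CD27 and TNFR2 signal through TRAF proteins to NF-kB and favour survival and division of T cells. CD28 and ICOS, of the immunoglobulin superfamily, bind B7 family ligands and act through PI3 kinase beside the antigen receptor. CD27 and CD28 are carried by resting T cells, while CD137, OX40 and ICOS are known as receptors induced by activation. Loss of Fas in mice of other strains can cause a lupus-like disease.

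Across libraries, *Tnfrsf9* had the widest difference, with its highest level in 12W spleen, then 28W spleen, then 28W kidney, while *Tnfrsf4* had the opposite order. *Cd28* was at nearly one level in all libraries. Of the 9 genes, 1 was at least 1.5-fold higher in 28W than in 12W spleen (*Tnfrsf4*), against 5.18% of 12412 genes, and 1 was at least 1.5-fold lower (*Tnfrsf9*), against 3.99%. In 28W kidney against 28W spleen, 2 were higher (*Tnfrsf4* and *Tnfrsf1b*), against 17.5% of 13189 genes, and 2 were lower (*Tnfrsf9* and *Tnfrsf25*), against 4.25%. The median log2 ratio of the 9 genes was 0.0012 with age, beside -0.082 over all genes tested, and -0.051 between organs, beside 0.11. Both comparisons use the 28W spleen library, so a high or low value there enters both with opposite sign. The plot of the levels shows all 27 values.

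**Figure D1:**
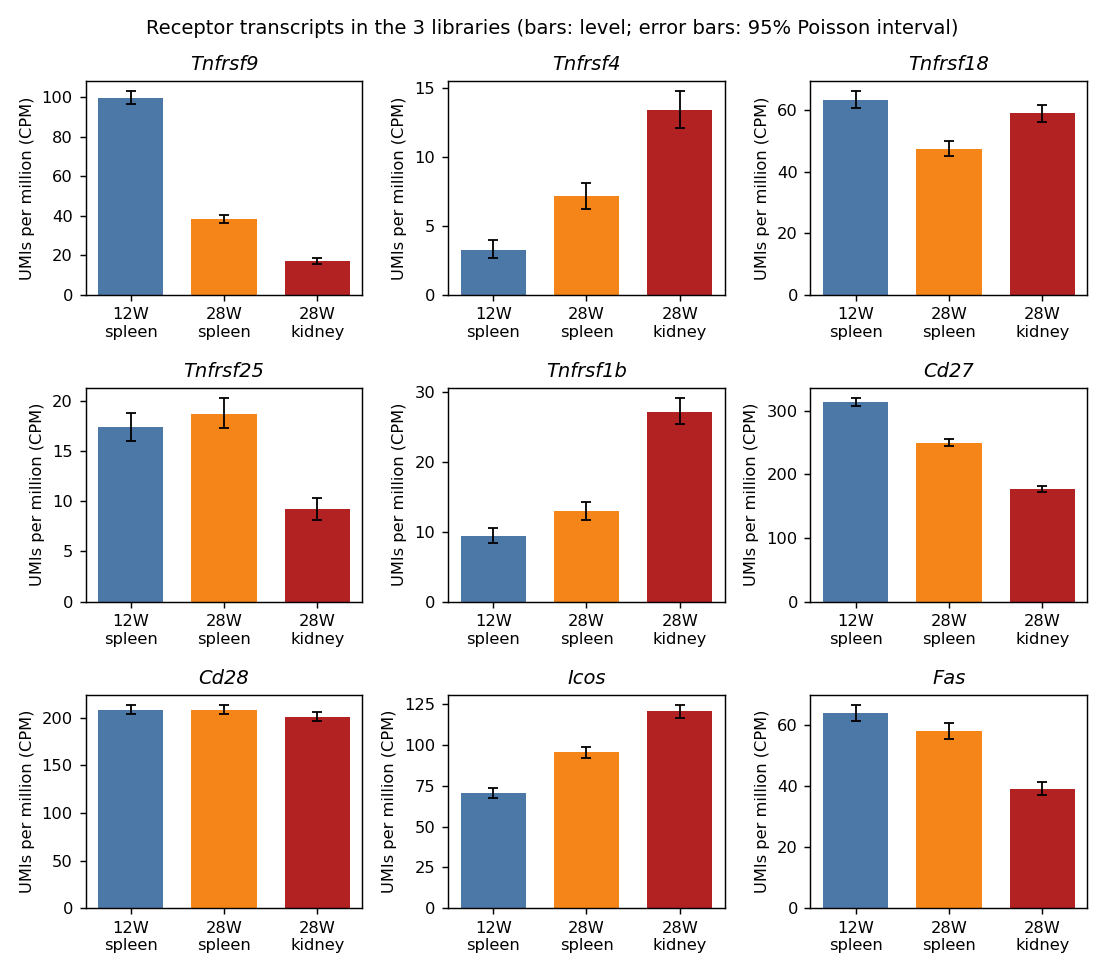
Level of each receptor gene in UMIs per 1000000 (CPM, vertical axes from 0, scales differ) in the 12W spleen, 28W spleen and 28W kidney libraries, with 95% Poisson intervals that cover counting error alone. *Tnfrsf9* stands at 99.7, 38.3 and 17.2 CPM, *Tnfrsf4* at 3.28, 7.15 and 13.4, and *Cd28* at 208, 208 and 201.

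*Tnfrsf9* (GRCm38 chr4:150914562-150946102, plus strand, overlapped on the other strand by *Camta1*) encodes CD137, which binds the ligand encoded by *Tnfsf9*. It was at 99.7 CPM in 12W spleen (95% Poisson interval 96.4 to 103), 38.3 in 28W spleen (36.2 to 40.5) and 17.2 in 28W kidney (15.7 to 18.7). On log2(CPM + 1) the ratio was -1.36 with age (95% interval -1.45 to -1.27) and -1.11 between organs (-1.25 to -0.97). These intervals, as all others here, cover counting error alone, and in a pooled library fewer cells with a transcript and less transcript per cell cannot be told apart.

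Most *Tnfrsf9* UMIs of each spleen library came from a single cluster. In 12W spleen, cluster 7 was at 523 CPM (503 to 543) and gave 75.3% of the UMIs from 5.40% of the cells, while the median cluster was at 23.3 and the lowest, cluster 6, at 6.43. Cluster 7 was led by *Xcl1* and *Ccl4*, chemokine genes of activated CD8+ T cells, and *Srm*, a polyamine synthesis gene, with 13406 UMIs per cell. Clusters 9 and 8 followed at 166 and 137 CPM.

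In 28W spleen, cluster 6 was at 153 CPM (144 to 163) and gave 80.7% of the UMIs from 8.15% of the cells, while the median cluster was at 7.11 and the lowest, cluster 4, at 1.97. Cluster 6 was led by cell cycle genes (*Pclaf*, *Birc5*, *Rrm2*), and *Xcl1* was at 584 CPM there against 2088 in cluster 7 of 12W spleen. The other clusters with the highest summed cycling markers did not hold such a level of *Tnfrsf9*, which was at 24.9 CPM in cluster 10 of 12W spleen and 22.2 in cluster 11 of kidney. In UMIs per cell cluster 6 was at 1.87. Cluster 10 of 12W spleen was at 0.357 (median cluster 0.115). Cluster 11 was the highest of kidney on that scale, at 0.253 (median cluster 0.047). Cluster 8 of 28W spleen, led by haemoglobin, immunoglobulin and neutrophil genes, came next at 107 CPM (76.7 to 145), an interval that overlapped that of cluster 6.

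In kidney *Tnfrsf9* was spread over more clusters, and the highest in CPM, cluster 8, gave 18.5% of its UMIs. That cluster was at 33.9 CPM (27.4 to 41.4), more than 2-fold above the other cells, the median at 10.4 and the lowest, cluster 2, at 5.17. Of the 12 kidney clusters 11 lay above the median cluster of 28W spleen, against the direction of the library totals. The most kidney UMIs, 22.6%, came from cluster 1, at 22.7 CPM. Without the cluster that gave the most *Tnfrsf9* UMIs in each library, the level was 28.8 CPM for 12W spleen, 9.27 for 28W spleen and 16.0 for kidney, so that the organ ratio turned to 0.73. The age ratio stayed negative in every setting run, from -3.39 to -1.01. The lower total in kidney than in 28W spleen therefore rested on 1 spleen cluster, while 28W spleen stayed below 12W spleen with or without it.

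**Figure D2:**
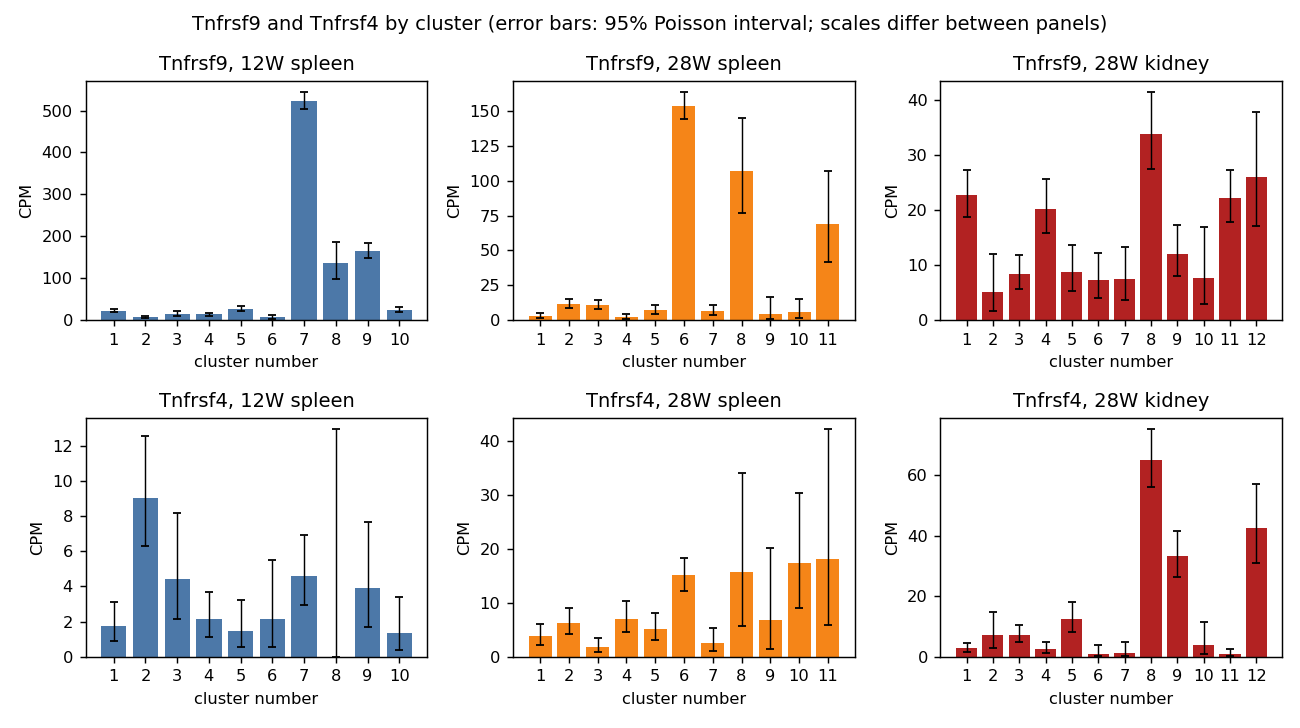
*Tnfrsf9* (top) and *Tnfrsf4* (bottom) in CPM (vertical axes from 0, scales differ) in each deposited cluster (horizontal axes) of 12W spleen, 28W spleen and 28W kidney, with 95% Poisson intervals. The peaks of *Tnfrsf9* are 523 CPM (12W spleen, cluster 7) and 153 CPM (28W spleen, cluster 6), and that of *Tnfrsf4* is 64.9 CPM (kidney, cluster 8).

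RefSeq gives 2 starts for *Tnfrsf9*, and counts per gene do not say which was used. The windows from 250 bases before to 50 after each start are shown because this gene had the widest span over clusters. Capitals mark matches to the NF-kB consensus and to the AP-1 motif TGANTCA, searched on both strands and chosen with the expression values known. The windows are chr4:150919905-150920204 and chr4:150927749-150928048 (GRCm38.p6, plus strand).
Tnfrsf9 first start: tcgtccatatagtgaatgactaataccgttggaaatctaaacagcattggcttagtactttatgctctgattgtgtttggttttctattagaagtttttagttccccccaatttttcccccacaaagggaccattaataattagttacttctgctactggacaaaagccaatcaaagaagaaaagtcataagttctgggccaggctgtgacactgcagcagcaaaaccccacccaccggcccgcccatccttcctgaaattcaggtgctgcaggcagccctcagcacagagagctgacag
Tnfrsf9 second start: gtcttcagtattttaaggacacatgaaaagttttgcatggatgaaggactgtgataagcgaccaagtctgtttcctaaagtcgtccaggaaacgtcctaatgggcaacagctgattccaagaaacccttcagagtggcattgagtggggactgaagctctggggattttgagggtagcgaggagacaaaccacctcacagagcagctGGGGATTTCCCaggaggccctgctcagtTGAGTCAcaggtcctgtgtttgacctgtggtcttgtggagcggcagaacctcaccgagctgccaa
The window of the second start holds 2 overlapping NF-kB consensus matches, printed as 1 run, and an AP-1 match, and that of the first holds neither. Of 32851 mouse promoter windows of this length 8.46% held the NF-kB consensus and 7.81% the AP-1 motif. Windows were found for 7 of the 9 genes, 9 windows in all, of which 2 held the first (*Tnfrsf9* and *Tnfrsf25*) and 2 the second (*Tnfrsf9* and *Fas*). A match describes letters only.

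*Tnfrsf4* (chr4:156013843-156016612) encodes OX40, the receptor for the ligand encoded by *Tnfsf4*. It was at 3.28 CPM in 12W spleen (2.71 to 3.94, from 114 UMIs), 7.15 in 28W spleen (6.25 to 8.14) and 13.4 in 28W kidney (12.1 to 14.8). The log2 ratio was 0.93 with age (0.67 to 1.19) and 0.82 between organs (0.61 to 1.03). The level was lowest in 12W spleen and highest in kidney, and the 3 intervals did not overlap, but the clusters did. With age, 10 of 11 clusters of 28W spleen lay above the median cluster of 12W spleen (2.14 CPM), whereas between organs 6 of 12 kidney clusters lay above and 6 below the median cluster of 28W spleen (6.87 CPM).

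The kidney UMIs of *Tnfrsf4* were concentrated. Cluster 8 was at 64.9 CPM (55.9 to 75.1) and gave 45.4% of them, followed by cluster 12 at 42.4 and cluster 9 at 33.4, against a median cluster at 5.55 and a lowest, cluster 11, at 0.977. Cluster 8 was led by immunoglobulin genes and *Cd79a* with 5 B cell markers at 1724 CPM, cluster 12 by neutrophil and macrophage genes (*S100a9*, *S100a8*, *Lyz2*, *C1qa*) with 5 myeloid markers at 8518 CPM, and the CD8 T cell markers were at 2191 and 1318 CPM there against 4134 to 8218 in clusters outside 2, 8 and 12. *Cd4* reached 12.5 and 20.2 CPM in clusters 8 and 12. Cluster 9 had no such markers raised and was led by *Il7r*, with *Tcf7*, a gene of naive and memory T cells, and *Tnfrsf4* itself among its leading genes. Without the clusters with raised B cell, myeloid or tubule markers, *Tnfrsf4* was at 7.02 CPM in kidney and 6.82 in 28W spleen, a log2 ratio of 0.037.

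In 28W spleen the lowest *Tnfrsf4* level was 1.87 CPM (cluster 3) and the highest 18.1 (cluster 11), with wide intervals, and cluster 6, the cycling cluster, gave the most UMIs at 15.1 CPM. Without the cycling clusters the age ratio was 0.46, under 1.5-fold, and with a pseudocount of 10 CPM it was 0.37. In 12W spleen the highest was cluster 2 at 9.03 CPM (6.29 to 12.6), led by *Ccl5* and *Gzmk*, genes of effector CD8+ T cells, and cluster 8 held 0 UMIs, which allows up to 10.53 CPM (3 counts).

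*Tnfrsf18* (chr4:156026164-156028895, overlapped by the antisense gene *Gm16008*) lies 9551 bases beyond *Tnfrsf4* on the same strand and encodes GITR, known from regulatory and activated T cells. It was at 63.5 CPM in 12W spleen (60.9 to 66.2), 47.6 in 28W spleen (45.2 to 50.01) and 59.1 in 28W kidney (56.4 to 61.9). The log2 ratio was -0.41 with age and 0.31 between organs, both under 1.5-fold, and 28W spleen was the lowest of the 3. No cluster was 2-fold above the other cells of its library. Levels ran from 23.5 CPM in cluster 7 to 98.3 in cluster 8 of 12W spleen, from 26.0 in cluster 10 to 80.1 in cluster 9 of 28W spleen and from 25.8 in cluster 2 to 74.9 in cluster 10 of kidney. The cluster in which *Tnfrsf9* peaked in 12W spleen was thus the one in which *Tnfrsf18* was lowest in CPM. This did not hold in UMIs per cell, where cluster 7 was at 0.315 beside a median cluster at 0.325. The lowest on that scale was cluster 8, at 0.091.

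Although they are neighbours, *Tnfrsf4* and *Tnfrsf18* had unlike patterns over the 33 clusters (Pearson r of -0.20 on log2(CPM + 10) centred within each library, a description of clusters that share library and depth). Their promoter windows, chr4:156013445-156013744 and chr4:156026072-156026371, are shown for this reason and hold neither motif.
Tnfrsf4: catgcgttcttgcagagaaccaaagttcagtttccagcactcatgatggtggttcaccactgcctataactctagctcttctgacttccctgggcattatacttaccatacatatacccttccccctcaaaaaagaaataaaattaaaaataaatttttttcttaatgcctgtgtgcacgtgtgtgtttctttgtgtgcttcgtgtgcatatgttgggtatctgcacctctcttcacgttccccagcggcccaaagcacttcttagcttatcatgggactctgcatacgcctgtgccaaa
Tnfrsf18: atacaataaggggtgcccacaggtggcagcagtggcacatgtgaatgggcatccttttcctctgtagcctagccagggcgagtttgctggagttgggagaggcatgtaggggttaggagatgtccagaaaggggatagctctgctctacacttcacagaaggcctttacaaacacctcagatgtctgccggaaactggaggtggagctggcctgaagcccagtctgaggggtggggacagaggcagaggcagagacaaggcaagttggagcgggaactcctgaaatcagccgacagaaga

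*Tnfrsf25* (chr4:152115934-152120119) encodes DR3, whose ligand is encoded by *Tnfsf15*. It was at 17.4 CPM in 12W spleen (16.0 to 18.8), 18.7 in 28W spleen (17.3 to 20.3) and 9.22 in 28W kidney (8.16 to 10.4). The spleen intervals overlapped, and kidney lay below both. The log2 ratio was 0.10 with age (-0.052 to 0.26) and -0.95 between organs (-1.14 to -0.76).

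*Tnfrsf25* was uneven in kidney, where clusters 5 and 4 were at 23.1 and 21.4 CPM, within the spleen range, while clusters 1, 6 and 11 were at 2.54, 3.10 and 0.977. Cluster 5 was led by *Il7r*, cluster 4 by the gamma delta T cell receptor segments *Trdv4* and *Tcrg-V6*, cluster 1 by *Gzmb*, the granzyme B gene, cluster 6 by interferon-stimulated genes such as *Ifit3*, and cluster 11 by cell cycle genes. In kidney 10 of 12 clusters lay below the median cluster of 28W spleen (21.0 CPM). In spleen the peak was 32.3 CPM at 12W (cluster 2) and 32.2 at 28W (cluster 1), the latter again led by *Il7r*. The gene most like *Tnfrsf25* over clusters was *Il7r*, the interleukin 7 receptor (r of 0.89), followed by *Rarg* (0.75) and *Nt5e* (0.74).

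*Tnfrsf1b* (chr4:145213463-145246870, minus strand) encodes TNFR2, which binds TNF and lymphotoxin alpha. It was at 9.41 CPM in 12W spleen (8.42 to 10.49), 12.9 in 28W spleen (11.7 to 14.2) and 27.3 in 28W kidney (25.4 to 29.2). The 3 intervals did not overlap, and kidney was 2.03-fold above 28W spleen on the CPM + 1 scale. The log2 ratio was 0.42 with age (0.23 to 0.61) and 1.02 between organs (0.86 to 1.18), and it stayed between 0.70 and 1.04 in the other settings of the organ comparison.

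The higher level of *Tnfrsf1b* in kidney was spread over clusters. All 12 kidney clusters, from 16.2 CPM in cluster 5 to 52.0 in cluster 12, lay above the median cluster of 28W spleen (14.3), which 2.04% of genes did. With age, no member had all 28W spleen clusters above or all below the median cluster of 12W spleen (1.6% and 1.74% of genes did). The cluster ranges of *Tnfrsf1b* still overlapped, since clusters of 28W spleen ran from 6.99 to 39.7 CPM. Without the clusters with raised B cell, myeloid or tubule markers the levels were 26.6 CPM in kidney and 12.8 in 28W spleen, a log2 ratio of 1.0005. The genes most like it were *Ddi2*, *Ywhag* and *Alcam* (r of 0.84, 0.84 and 0.82).

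*Fas* (chr19:34290666-34327772, overlapped on the same strand by *Gm27818*) encodes the death receptor for Fas ligand, which removes activated lymphocytes. It was at 64.0 CPM in 12W spleen (61.3 to 66.7), 58.1 in 28W spleen (55.5 to 60.8) and 39.2 in 28W kidney (37.0 to 41.5). The log2 ratio was -0.14 with age (-0.22 to -0.049) and -0.55 between organs (-0.66 to -0.45), a level 1.47-fold lower in kidney. It passed 1.5-fold in 4 of 9 other settings, at -0.62 with scaling by the median gene ratio, -0.71 with a library total free of T cell receptor, immunoglobulin, mitochondrial and ribosomal protein genes, -0.67 with means over cells and -0.59 without the cycling clusters.

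All 12 kidney clusters, from 23.2 CPM in cluster 10 to 54.2 in cluster 5, lay below the median cluster of 28W spleen (60.3), which 1.53% of genes did. *Fas* was the mirror of *Tnfrsf1b* in this respect. The ranges overlapped through the low end of 28W spleen, where cluster 10, led by immunoglobulin genes and *Cd74*, was at 31.8 CPM. *Fas* was otherwise even over clusters in CPM, with the highest cluster 1.95 to 3.33-fold above the lowest in each library. In UMIs per cell this span was 7.72 to 12.7-fold, with the highest level in the cycling cluster of each library. The genes most like it were *Trav3-3*, *Ubac2* and *Elovl5* (r of 0.79, 0.78 and 0.76).

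**Figure D3:**
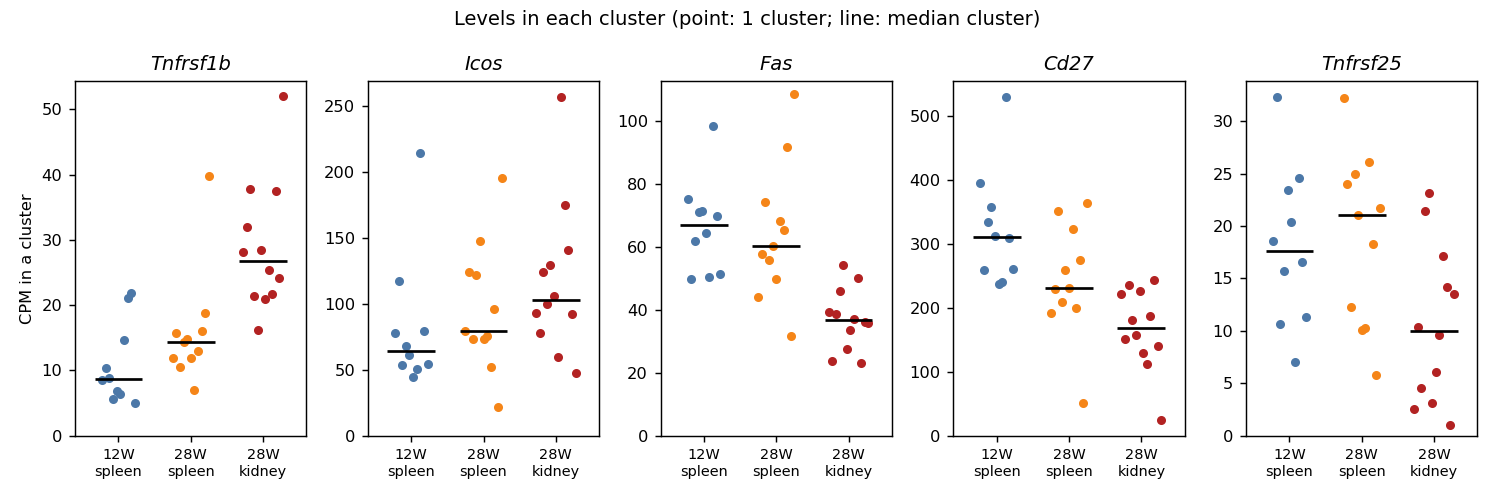
Level in CPM (vertical axes from 0, scales differ) of *Tnfrsf1b*, *Icos*, *Fas*, *Cd27* and *Tnfrsf25* in each cluster (1 point) of 12W spleen, 28W spleen and 28W kidney, with a line at the median cluster. All kidney points of *Tnfrsf1b* lie above the 28W spleen line at 14.3 CPM, and all those of *Fas* lie below the line at 60.3.

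*Cd27* (chr6:125232622-125237010, minus strand) encodes the receptor for CD70 and is carried by naive and memory T cells. The gene is overlapped by *Vamp1* on the other strand and by *Mir8113* on the same strand. It was at 314 CPM in 12W spleen (308 to 320), 250 in 28W spleen (244 to 255) and 177 in 28W kidney (173 to 182). The order was the same as that of *Tnfrsf9* with smaller steps, a log2 ratio of -0.33 with age and -0.49 between organs. Without the clusters with raised B cell, myeloid or tubule markers the organ ratio was -0.38. In kidney, 10 of 12 clusters lay below the median cluster of 28W spleen (232 CPM).

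The lowest *Cd27* levels were in clusters that stood apart by other cell markers, 24.1 CPM in cluster 12 of kidney and 50.6 in cluster 10 of 28W spleen. The highest were 530 CPM in cluster 8 of 12W spleen, 365 in cluster 11 of 28W spleen and 244 in cluster 10 of kidney. Both spleen clusters held little RNA, with 928 and 1288 UMIs per cell. Counted per cell, *Cd27* was instead lowest in cluster 8 among the 12W clusters, at 0.492 UMIs, and highest in the cycling cluster 10, at 3.74. The 28W peaks on this scale also lay in cycling clusters, cluster 6 for spleen (2.83) and cluster 11 for kidney (1.60). The genes most like *Cd27* were *Trac*, *Lck* and *Lat*, which encode the T cell receptor alpha constant region, its kinase and an adaptor (r of 0.92, 0.91 and 0.91).

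*Cd28* (chr1:60716800-60773359) encodes the receptor for CD80 and CD86. It was at 208 CPM in 12W spleen (203 to 213), 208 in 28W spleen (203 to 213) and 201 in 28W kidney (196 to 206). The 3 intervals overlapped, and the log2 ratio was 0.0012 with age (-0.047 to 0.049) and -0.051 between organs (-0.10 to -0.00094).

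*Icos* (chr1:60977927-61000320), 204567 bases beyond *Cd28*, is overlapped on the same strand by *Gm37039*. It was at 70.4 CPM in 12W spleen (67.7 to 73.3), 95.4 in 28W spleen (92.1 to 98.9) and 120.4 in 28W kidney (117 to 124). The log2 ratio was 0.43 with age (0.36 to 0.51) and 0.33 between organs (0.26 to 0.40). Without the clusters with raised B cell, myeloid or tubule markers the organ ratio was 0.21. The 3 intervals did not overlap, with the order opposite to that of *Cd27*, yet each step was under 1.5-fold. ICOS, known for its part in help to B cells, was highest in kidney cluster 8 at 257 CPM (239 to 276), the same cluster as *Tnfrsf4*, which gave 19.97% of its kidney UMIs.

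In spleen, *Cd28* and *Icos* were highest in clusters with little RNA per cell. In cluster 8 of 12W spleen, with 928 UMIs per cell and 8.98% of them mitochondrial, *Cd28* was at 664 CPM and *Icos* at 214, and in cluster 11 of 28W spleen, with 1288 UMIs per cell and 6.64% mitochondrial, at 607 and 195. In UMIs per cell the highest clusters were others, the cycling clusters 10 of 12W spleen (2.20 for *Cd28*) and 6 of 28W spleen (2.02). The part of the low RNA content in the CPM values was not tested. In kidney *Cd28* was highest in cluster 9 at 278 CPM, and the lowest level of both genes was in cluster 12. Over 33 clusters *Cd28* and *Icos* correlated at r of 0.87 and *Cd27* and *Cd28* at 0.84, while *Tnfrsf4* and *Cd27* were at -0.51. The genes most like *Cd28* were *Stat4*, *Ets1* and *Camk4* (r of 0.91, 0.90 and 0.90), and those most like *Icos* were *Emb*, *Cd28* and *Rnf138* (0.88, 0.87 and 0.86).

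**Figure D4:**
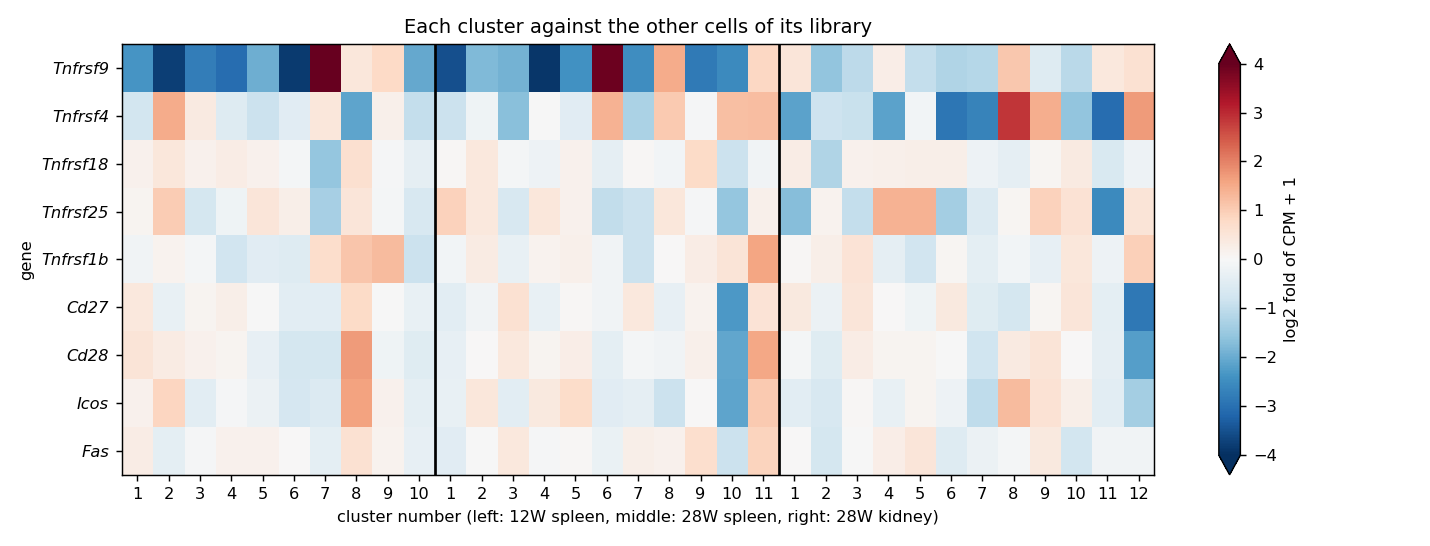
Log2 fold of CPM + 1 of each receptor gene (rows) in each deposited cluster (columns, grouped by library) against the other cells of that library, red above and blue below, with colours ending at 4 and -4. *Tnfrsf9* has the strongest contrasts in both spleen libraries, *Fas* is among the most even, and *Cd27*, *Cd28* and *Icos* are low together in cluster 10 of 28W spleen and cluster 12 of kidney.

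Because the clusters were made by the authors from the same genes, their contrasts are a description. A member was at least 2-fold above the other cells in 7 of 90 gene and cluster pairs in 12W spleen (6.84% over all genes), 9 of 99 in 28W spleen (6.24%) and 7 of 108 in kidney (5.82%). *Tnfrsf4* gave 8 of these 23 pairs and *Tnfrsf9* 4, and *Tnfrsf18*, *Cd27* and *Fas* gave 0. The *Tnfrsf4* pairs in clusters 8 and 11 of 28W spleen rested on 6 and 5 UMIs, and their intervals included the level of the other cells. The genes most like *Tnfrsf9* were *Ncl*, *Naa50* and *Xcl1* (r of 0.88, 0.88 and 0.86). Those most like *Tnfrsf4* were *Tgif1*, *Cd83* and *Nfkbia*, the last an NF-kB target and inhibitor (0.82, 0.76 and 0.76). Those most like *Tnfrsf18* were *Tmem50a*, *Arl6ip5* and *Ltb* (0.87, 0.83 and 0.81).

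For *Fas* and *Tnfrsf9* the ligand had the reverse order of the receptor in the library totals, although *Tnfrsf9* was higher in kidney than in 28W spleen without the cycling clusters (16.4 against 9.27 CPM). In the order 12W spleen, 28W spleen, 28W kidney, *Fasl* was at 6.82, 16.4 and 72.7 CPM, while *Fas* was at 64.0, 58.1 and 39.2. *Tnfsf9* was at 2.99, 9.15 and 20.3 CPM, against 99.7, 38.3 and 17.2 for *Tnfrsf9*. *Tnf*, a ligand of TNFR2, was at 15.5, 32.3 and 63.6 CPM, the same order as *Tnfrsf1b*. Of 11 partner ligands, 7 were measured with age, of which 3 were higher (*Tnfsf9*, *Tnf* and *Fasl*, log2 ratios of 1.35, 1.01 and 1.15) and 1 lower (*Icosl*, -0.61), and 8 were measured between organs, of which 6 were higher and 0 lower. For these and the lists that follow, the shares over all genes were 5.18% higher and 3.99% lower with age, and 17.5% higher and 4.25% lower between organs. These shares are for the whole libraries. None is given for the counts without the clusters with raised markers of other cells, so those counts have no background beside them.

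The organ ratios were 2.08 for *Fasl*, 1.07 for *Tnfsf9*, 0.96 for *Tnf*, 1.05 for *Cd86*, 0.91 for *Icosl* and 0.76 for *Cd80*, and without the clusters with raised markers of other cells 5 ligands were higher and *Icosl*, at 0.52, was not. *Fasl* was lowest in kidney cluster 12 (16.4 CPM) and highest in cluster 6 (143 CPM), the cluster led by interferon-stimulated genes. *Cd86* and *Icosl*, ligands known from antigen-presenting cells, were highest in kidney cluster 12, at 124 and 33.7 CPM, and that cluster gave 44.3% of the kidney *Icosl* UMIs. *Cd70*, the CD27 ligand, had 2, 1 and 10 UMIs and was under the minimum of 20, as was *Tnfsf15*.

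Of the other TNF family ligands, 1 of 6 was higher with age (*Cd40lg*, 0.66) and 0 lower, and between organs 2 were higher (*Tnfsf10*, 1.43, and *Tnfsf14*, 0.92) and 1 lower (*Tnfsf8*, -1.32). Of 18 other TNF receptors, 12 were measured with age, 3 higher and 0 lower, with *Cd40* at 0.88 and *Tnfrsf13c* at 0.80. Between organs 15 were measured, 7 higher and 2 lower, with *Ltbr* at 1.23, *Tnfrsf21* at 1.20, *Cd40* at 1.11 and *Tnfrsf26* at -1.26. Without the clusters with raised markers of other cells 9 were measured between organs, 2 higher and 4 lower, and 10 with age, 3 higher and 1 lower, while *Cd40*, *Ltbr* and, between organs, *Tnfrsf21* were under 20 UMIs. *Cd40*, known from B cells and myeloid cells, had 95.9% of its 28W spleen UMIs in cluster 10.

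The inhibitory relatives of CD28 differed in their order. *Ctla4*, which competes for the ligands of CD28, was at 32.6, 95.6 and 43.9 CPM in the same order of libraries, a log2 ratio of 1.52 with age and -1.11 between organs. *Pdcd1*, the gene of the sort marker PD-1, was at 36.6, 34.7 and 115 CPM, a ratio of -0.072 and 1.70. *Btla* was under 1.5-fold in both.

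Genes that carry these signals inside the cell mostly stayed within 1.5-fold, as most of all genes did. Over all genes 5.18% were higher and 3.99% lower with age, and 17.5% and 4.25% between organs. Of 10 TRAF and proximal NF-kB genes 0 passed 1.5-fold in either comparison (1 was lower between organs without the clusters with raised markers of other cells), with *Traf1* at 0.46 with age and *Birc2* at -0.47 between organs, and of 5 genes of the Fas death arm 0 passed, with *Fadd* at -0.51 with age and *Cflar*, an inhibitor of that arm, at 0.45 between organs. Of 8 genes of the CD28 arm 0 passed with age and 1 between organs, *Pik3cd*, which encodes a PI3 kinase subunit, at -0.74.

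Genes that respond to NF-kB were higher in 3 of 10 cases with age (*Tnfaip3*, 1.63, *Bcl3*, 1.25, and *Nfkbia*, 0.75) and in 4 of 10 between organs (*Bcl2l1*, 1.08, *Rel*, 0.81, *Bcl2a1b*, 0.64, and *Nfkbie*, 0.61), and 0 were lower in either (without the clusters with raised markers of other cells 3 were higher and 1 lower between organs, with *Rel* at 0.027 and *Tnfaip3* at -0.81). Genes that respond to the antigen receptor were lower in 4 of 7 cases with age (*Nr4a1*, -1.42, *Egr3*, -0.87, *Egr2*, -0.84, and *Egr1*, -0.65) and higher in 1 (*Nr4a2*, 0.68). Between organs 3 were higher, led by *Nr4a1* (1.82), and 2 lower, *Egr2* (-1.05) and *Egr3* (-0.59), while without the clusters with raised markers of other cells 0 were higher and 4 lower, with *Nr4a1* turned to -0.62. *Nr4a1* was at 733 CPM in kidney cluster 8, where B cell markers were raised (1724 CPM). In CPM that cluster also had the highest *Tnfrsf9*, *Tnfrsf4* and *Icos* levels in kidney. In UMIs per cell *Tnfrsf9* was instead highest in kidney cluster 11. Of 3 measured regulatory T cell genes, *Ikzf2* was lower in both (-1.10 and -1.21), and *Foxp3* and *Il2ra* passed in neither, while 2 were lower between organs without the clusters with raised markers of other cells.

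**Figure D5:**
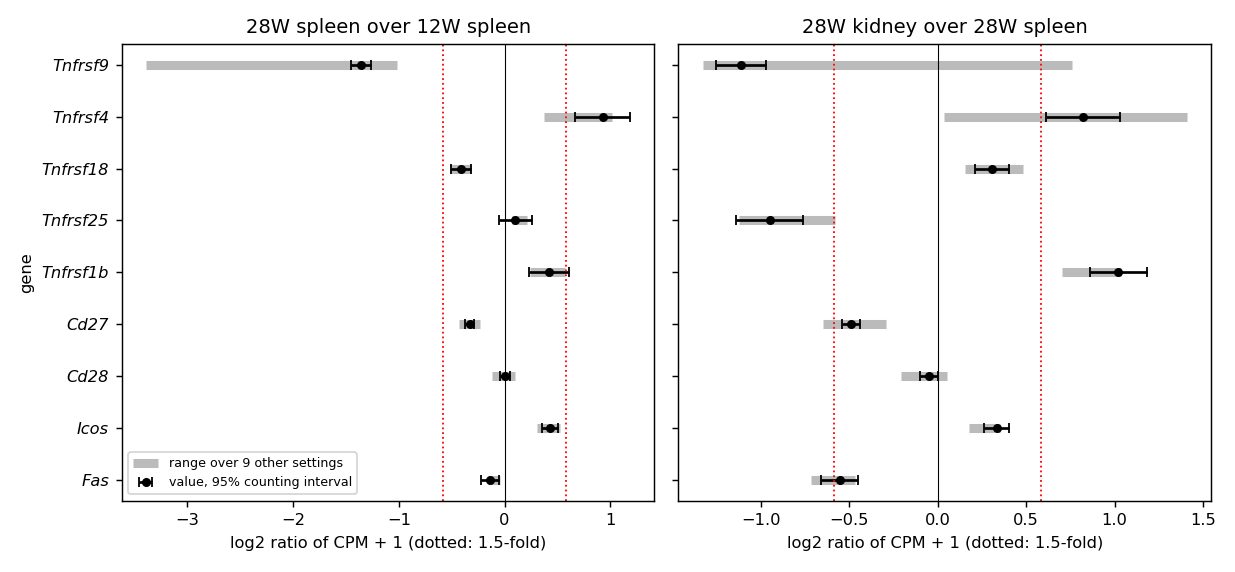
Log2 ratio of CPM + 1 of each receptor gene for 28W spleen over 12W spleen (left) and 28W kidney over 28W spleen (right), with 95% counting intervals, the range over 9 other settings in grey and dotted lines at 1.5-fold. The grey range of *Tnfrsf9* between organs crosses 0, from -1.33 to 0.76, and that of *Tnfrsf4* reaches down to 0.037, while that of *Tnfrsf1b* stays above the line.

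Counts of calls differed with the scale. With the library total taken without T cell receptor, immunoglobulin, mitochondrial and ribosomal protein genes, the median of all genes between organs shifted by -0.14, the share of higher calls among all calls was 68.4% in place of 80.5%, and 2 receptor genes were higher and 4 lower, with *Cd27* and *Fas* added at -0.65 and -0.71. Over all genes, 973 were lower in that setting in place of 561, and 2104 higher in place of 2312. With scaling by the median gene ratio the share of higher calls with age was 68.2% in place of 56.5%. The 9 log2 ratios of each comparison kept their sign under both scalings.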

How the data were processed

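RNA of single cells was captured with the 5′ kit of 10x Genomics. The submitters' processing notes name Cell Ranger 2.1.1 and R 3.6.1 and the build GRCm38, and the study's methods name the Cell Ranger vdj pipeline. The annotation release, cell filters and doublet treatment are not given in the sources used here. For each library the authors deposited cluster numbers per barcode and a table with a signal value per gene and cluster, the mean UMI count scaled by the size factors of the cells. Columns of the authors' own log2 fold changes and adjusted p-values were not used, nor were the paired T cell receptor sequences.

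Each deposited signal column holds whole multiples of the value of 1 UMI. Division by it gave whole UMIs for 100% of values within 0.001. UMIs were summed over clusters and divided by the library total (CPM). Since the authors normalized each table apart, levels across libraries rest on this rescaling. Log2 ratios were taken after adding 1 CPM, so changes of low genes are understated. A difference was called at 1.5-fold among genes with at least 20 UMIs over the libraries compared. No test was run and no p given, as each group is 1 library. Exact 95% Poisson intervals, and the limit of 3 counts for 0 UMIs, cover counting error alone. Reads of overlapping or antisense genes may be shared.

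Markers of other cells were called raised in a cluster when a list's sum exceeded 5 times the library's median cluster and 200 CPM. Likeness was Pearson's r over 33 clusters on log2(CPM + 10) centred within each library, among 7610 genes with a mean of at least 10 CPM. The text names the 9 genes, their highest and lowest clusters, the 3 genes most like each, and up to 4 genes with the largest ratios per list. Some clusters and genes of the lists were named beside these after their values were seen. Genes and lists were chosen with earlier results of these data known. Coordinates are from GENCODE M21 (GRCm38), and promoter windows from RefSeq (GRCm38.p6). Alternatives were other scalings, pseudocounts and thresholds, and leaving out clusters. Scripts (Python 3.11.15, numpy 2.4.6, pandas 2.3.3, scipy 1.17.1) were tested on simulated data.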

Additional observations from a re-analysis of the deposited data

How the results depend on the processing

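Over 9 other settings, 8 of the 9 receptor genes kept the sign of their log2 ratio and 8 kept their call at 1.5-fold in every setting with age, and 7 and 4 did so between organs. *Tnfrsf9* reversed between organs, to 0.76 without the cycling clusters and 0.73 without the cluster with the most UMIs of each gene. The count higher with age (1) was 0 at a 2-fold threshold, with a pseudocount of 10 CPM and without the cycling clusters. The count higher between organs (2) was 1 at 2-fold, with that pseudocount and without clusters with raised B cell, myeloid or tubule markers, erythroid and neutrophil markers added or not, and 3 without the cycling clusters. The count lower between organs (2) was 1 at 2-fold, with that pseudocount and without the cluster with the most UMIs, 3 with scaling by the median gene ratio and with the deposited means averaged over cells, and 4 with the total free of T cell receptor, immunoglobulin, mitochondrial and ribosomal protein genes. Over all genes the lower calls between organs were 561 in the main setting, 656 with scaling by the median gene ratio and 973 with that total. Counts over all genes are not given for the remaining settings. The median of the 9 ratios with age (0.0012) was 0.098 with scaling by the median gene ratio and -0.12 with the deposited means averaged over cells. Between organs (-0.051) it was -0.12 and -0.15 in these settings, -0.21 with the reduced total, 0.050 without the other-cell, erythroid and neutrophil clusters, 0.30 without the cycling clusters and 0.23 without the cluster with the most UMIs. Of 27 gene and library pairs, 19 spanned at least 4-fold over clusters, 11 with a pseudocount of 10 CPM, 11 without clusters with raised markers of other cells and 27 in UMIs per cell. Of the 27 most alike genes, 10 were also named without centring. The causes were not tested, except that fewer clusters enter where some are left out. List counts without other-cell clusters were added after seeing the data. With age they differed for the other TNF receptors, where 10 were measured in place of 12, *Cd40* fell under 20 UMIs, *Tnfrsf23* was higher (0.59) and *Tnfrsf21* lower (-0.85). No paired analysis was possible because each group is 1 pooled table, which also means that no replicate could be left out. Counting error limits *Tnfrsf4* in 12W spleen most, with 114 UMIs.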
